A study of Homo sapiens with 45 samples.

Results

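The genes described here are 55 human genes of calcium entry, storage and signalling, of 41582 genes to which the deposited transcripts could be joined. They were chosen by function as a fixed list of symbols, and the values of all transcripts of a symbol were summed. The list holds the store sensors STIM1 and STIM2, the Orai channels, the calcium pumps, the store release channels, the pore subunits of the voltage-gated calcium channels, 7 TRP channels, the mitochondrial uniporter and its regulator MICU2, 4 calcium exchangers, 2 calmodulins, the CaM kinase II subunits, the calcineurin catalytic subunits and 4 NFAT factors.

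As background, cytosolic calcium is kept low by pumps that move it out of the cell or into the endoplasmic reticulum, and it rises when channels in either membrane open. When the store empties, STIM proteins in its membrane open Orai channels in the plasma membrane, which is called store-operated entry. Calmodulin reads the rise and turns on CaM kinase II and calcineurin, and calcineurin sends NFAT transcription factors to the nucleus.

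Poly(A) RNA was sequenced in 45 libraries of human tumour lines. Ewing sarcoma, a bone and soft tissue cancer in which EWSR1 is fused to a gene of the ETS family, was represented by the 7 lines TC71, SKES1, RDES, MHHES1, A673, EW3 and EW24. Osteosarcoma, a bone tumour without that fusion, was represented by the 6 lines G292 (clone A141B1), HOS-MNNG (MNNG/HOS Cl #5), KHOS (KHOS/NP), MG63, SAOS2 and U2OS. Each line had 3 libraries, and no treatment was named for any of them. HOS-MNNG and KHOS both derive from the HOS line. There were also 6 libraries of A673 with sh908, a hairpin RNA that targets the potassium channel gene KCNN1 and is switched on by doxycycline, 3 without and 3 with the drug. The labels gave no dose or time of doxycycline, no control hairpin, no doxycycline-treated cells without the hairpin, and no word on whether sh908 cells were a clone or on whether libraries came from separate cultures. P-values therefore measure the spread between these samples, which may be technical within a line.

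Library totals ranged from 15974173 to 51413254 estimated counts. The summed level of 8 Ewing sarcoma markers, in TPM, the authors' abundance scaled for transcript length and library depth, was 1617 to 3286 TPM in Ewing sarcoma and 272 to 1373 TPM in osteosarcoma lines. For 8 osteoblast markers it was 70.4 to 939 TPM and 278 to 4865 TPM, which overlapped. Single markers did not all follow the labels. NR0B1 was at 0.651 TPM in MHHES1 and 0.316 TPM in RDES, below U2OS at 2.45 TPM. CD99 was lower in EW24 (290 TPM) than in MG63 (944 TPM), and CCND1 was lower in TC71 (454 TPM) than in G292 (575 TPM). The other Ewing sarcoma markers, NKX2-2, STEAP1, PRKCB, LIPI and BCL11B, did not overlap between the tumours. IBSP was at most 0.367 TPM in any line, and ALPL ran from 3.44 to 187 TPM in Ewing sarcoma and from 0.122 to 824 TPM in osteosarcoma lines. The 6 muscle markers summed to at most 3.33 TPM in any line, and MYH7 and MYOG were under 0.1 TPM in all 13 lines. Replicate 3 of both sh908 groups stood apart, with 14101 and 13816 genes at 1 TPM or more against 11944 to 12066 in replicates 1 and 2. Parental A673 had 13560 to 13763 such genes, nearer to replicate 3, and no library of the 13 lines had fewer than 13097. KCNN1, the target of the hairpin, measured 37.8, 35.3 and 17.99 TPM in the 3 libraries without doxycycline and 10.2, 13.7 and 7.75 TPM in those with it.

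Most of the calcium genes were present in both tumours, and 47 of the 55 reached a mean of 1 TPM in at least 1 line. The other 8 stayed below that in all 13 lines: the muscle and brain ryanodine receptor RYR3, the L-type channels CACNA1D, CACNA1F and CACNA1S, the TRP channels TRPC5 and TRPV6, the exchanger SLC8A3 and the neuronal kinase subunit CAMK2A. The highest mean among these 8 was 0.97 TPM, of CAMK2A in MG63. The calmodulin gene CALM2 had the highest level of the set in every line.

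**Figure D1:**
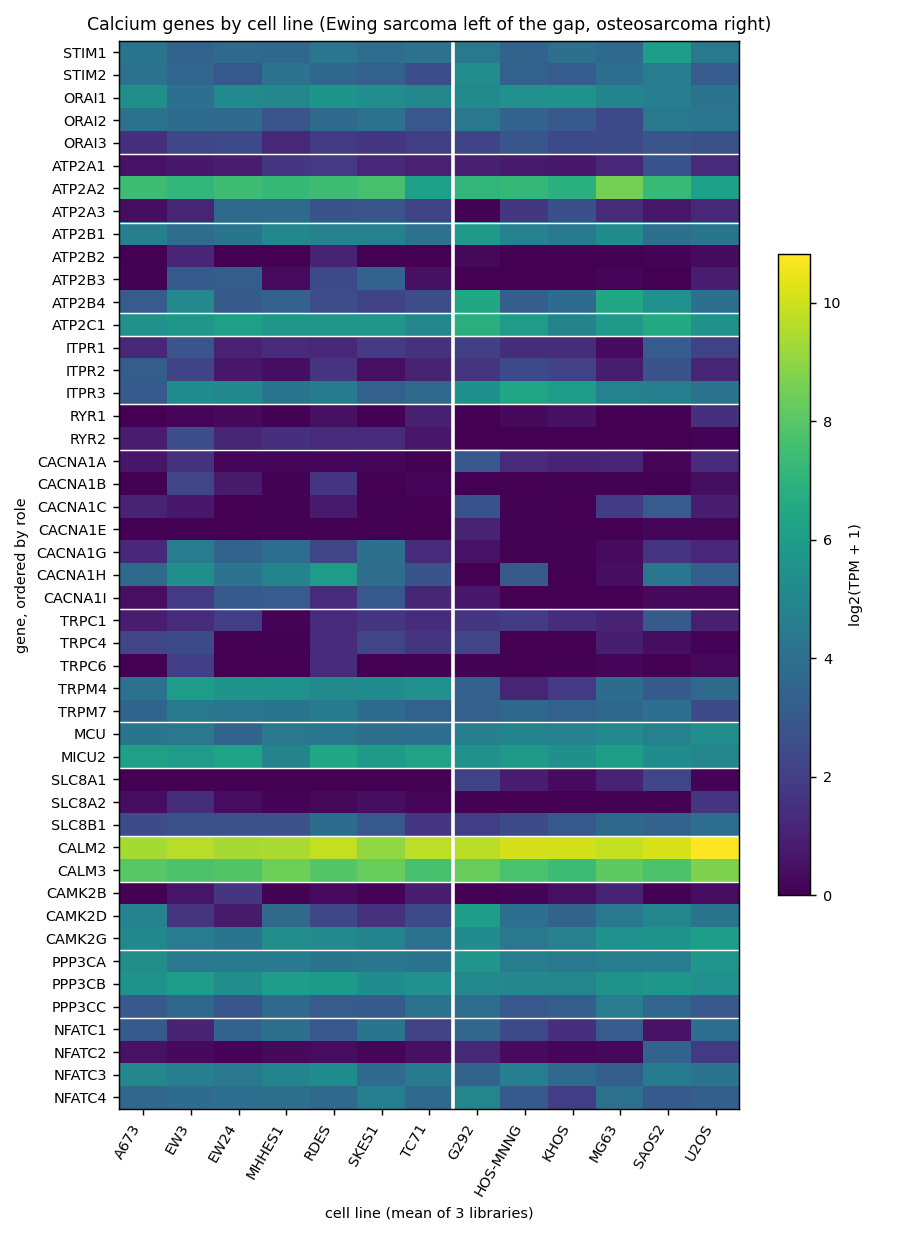
Mean level of the 47 calcium genes that reached 1 TPM in a line, as log2(TPM + 1) of the mean of 3 libraries, with genes in rows by role and the 7 Ewing sarcoma and 6 osteosarcoma lines in columns. CALM2, CALM3 and ATP2A2 are high in every line, while RYR2, TRPM4 and SLC8A1 change level at the gap between the tumour types.

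The tumour types were compared because the study's title concerns calcium signalling in Ewing sarcoma. The libraries of a line were summed so that the line was the sample, and the 13 lines were fitted with edgeR's quasi-likelihood test over all genes, with a gene called at a Benjamini-Hochberg false discovery rate (FDR) under 0.05. HOS-MNNG and KHOS, both from the HOS line, were entered as separate samples in every test, and no fit left out both. The osteosarcoma samples are thus not all independent. Where no other tool is named, called or not called refers to edgeR. A low-count filter left 48 of the 55 genes. The genes that did not pass it were ATP2B2, CACNA1E, CACNA1F, CACNA1S, TRPC6, TRPV6 and CAMK2A. Of the 48, 9 were called, where 14.4% of all 21975 genes tested were called. RYR2, CACNA1G, CACNA1I and TRPM4 were higher in the Ewing sarcoma lines, and MCU, SLC8A1, CALM2, ATP2B4 and NFATC2 were lower. Among all genes 5.99% were called higher and 8.46% lower. The median log2 fold change was -0.40 over the 48 genes, of which 17 had a positive sign, and -0.06 over all genes, of which 46.6% had a positive sign. In TPM, the line means of 4 genes did not overlap between the tumours, RYR2 and TRPM4 above and MCU and SLC8A1 below, where 5.59% of all genes did not overlap, 3.19% above and 2.39% below. Lines are bulk cultures, in which fewer cells with a transcript and less of it per cell cannot be told apart.

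**Figure D2:**
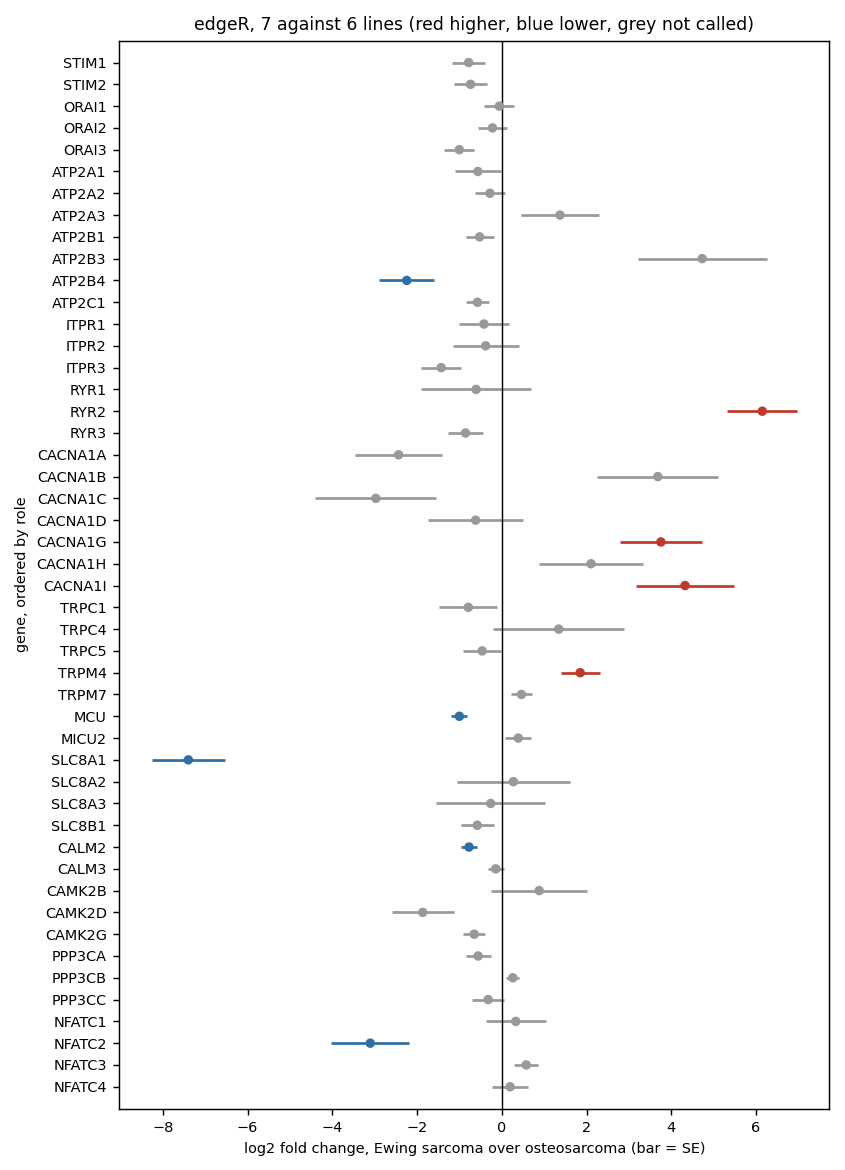
Log2 fold change of Ewing sarcoma over osteosarcoma lines for the 48 genes tested with edgeR, with bars for the standard error and genes ordered by role. Of the 9 genes called, 4 lie to the right of 0 (red) and 5 to the left (blue), and the genes in grey were not called.

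The store sensors and Orai channels were found in every line and none was called by edgeR. STIM1, the main sensor of store content, ranged from 9.74 TPM in EW3 to 66.4 TPM in SAOS2. STIM2, the sensor that responds to smaller losses from the store, ranged from 5.13 TPM in TC71 to 38.2 TPM in G292. Among the channels, ORAI1 had the highest TPM in 12 of the 13 lines, all but U2OS, with 14.4 TPM in EW3 to 47.5 TPM in RDES. Its medians of 35.1 TPM in Ewing sarcoma and 31.3 TPM in osteosarcoma lines were close, with a log2 fold change of -0.06 (SE 0.36, edgeR FDR 0.933). ORAI2 ranged from 4.26 TPM in MG63 to 19.2 TPM in SAOS2. ORAI3 was the lowest of the trio in 12 lines, all but MG63, with 1.32 TPM in MHHES1 to 6.33 TPM in HOS-MNNG. The change of ORAI3, a log2 fold change of -1.004 (SE 0.35), missed the threshold in edgeR (FDR 0.0728).

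The pumps of the endoplasmic reticulum were represented almost wholly by ATP2A2, the SERCA2 gene, which held 91.3% to 99.6% of the summed TPM of the 3 SERCA genes in each line. ATP2A2 ranged from 68.5 TPM in TC71 to 374 TPM in MG63 and was not called (log2 fold change -0.28, SE 0.36, edgeR FDR 0.647). ATP2A1, the fast skeletal muscle pump, ranged from 0.456 TPM in A673 to 5.52 TPM in SAOS2. ATP2A3, a pump of blood and epithelial cells, ranged from 0.0533 TPM in G292 to 12.2 TPM in EW24. Neither of the minor pumps was called.

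Of the pumps of the plasma membrane, ATP2B4 was lower in the Ewing sarcoma lines. ATP2B4 (gene ID 493, GRCh38.p14 chr1:203626832-203744081) encodes a widely expressed plasma membrane calcium pump. Its level was 7.50 TPM in A673, 32.9 in EW3, 7.46 in EW24, 9.49 in MHHES1, 4.86 in RDES, 3.61 in SKES1 and 4.81 in TC71. It was 88.4 TPM in G292, 8.34 in HOS-MNNG, 12.7 in KHOS, 87.5 in MG63, 43.7 in SAOS2 and 14.98 in U2OS. The SD over a line's 3 libraries was at most 12.2 TPM. The tumours overlapped, because EW3 lay above 3 osteosarcoma lines and MHHES1 above HOS-MNNG. The log2 fold change was -2.24 (SE 0.64, edgeR FDR 0.0339). The call was lost without A673, EW24, MHHES1, RDES, SKES1, TC71, G292 or MG63, with fold changes of -2.22 to -1.88 and edgeR FDR values of at most 0.0721, and in the exact permutation test over lines (adjusted p 0.122).

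The other pumps were not called by edgeR, in which ATP2B2 was not tested. ATP2B1, the housekeeping plasma membrane pump, led this family in 9 lines and ATP2B4 in the other 4, with ATP2B1 at 13.6 TPM in EW3 to 55.5 TPM in G292. ATP2B3, a pump best known from neurons, reached 9.61 TPM in SKES1 and had medians of 4.33 TPM in Ewing sarcoma and 0.0102 TPM in osteosarcoma lines. It was at 0.0583 TPM in A673 and 0.793 TPM in U2OS, so the groups overlapped, and its log2 fold change of 4.73 (SE 1.52) missed the threshold in edgeR (FDR 0.0537). ATP2B2, a pump of neurons and hair cells, reached 1.27 TPM in EW3 and was listed at 0 in TC71. ATP2C1, the pump of the Golgi apparatus, ranged from 28.2 TPM in KHOS to 112 TPM in G292.

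Among the store release channels, RYR2 was higher in every Ewing sarcoma line than in any osteosarcoma line. RYR2 (gene ID 6262, GRCh38.p14 chr1:237042184-237833988) encodes the ryanodine receptor best known from the heart, a channel through which calcium leaves the store. Its level was 0.768 TPM in A673, 4.85 in EW3, 1.20 in EW24, 1.76 in MHHES1, 1.47 in RDES, 1.49 in SKES1 and 0.623 in TC71. It was 0.0158 TPM in G292, 0.00458 in HOS-MNNG, 0.00719 in KHOS, 0.0081 in MG63, 0.025 in SAOS2 and 0.0896 in U2OS. EW3 stood above the other Ewing sarcoma lines, and U2OS above the other osteosarcoma lines. The SD over libraries was at most 0.633 TPM, in EW3. These levels rested on 557 to 3985 estimated counts per Ewing sarcoma line, over 3 libraries, and on 4 to 64 per osteosarcoma line. Its log2 fold change was 6.15 (SE 0.82, edgeR FDR 0.000525). It stayed called with each line, or each replicate number, left out, at 5.70 to 7.10. The 6 muscle markers summed to 0.582 to 1.89 TPM in the Ewing sarcoma and 1.13 to 3.33 TPM in the osteosarcoma lines. MYH3 alone was at 0.412 to 1.72 TPM and 0.705 to 1.62 TPM. The part of such cells in the result was not tested. The absolute level of RYR2 was nevertheless low, with a median of 1.47 TPM in the Ewing sarcoma lines against 174 TPM for the pump ATP2A2.

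The promoter of RYR2 is shown with those of TRPM4 and CACNA1I because these are genes called higher in the Ewing sarcoma lines, and because the core sequence GGAA is the site that ETS factors, the family of FLI1, recognise. Each window is the 250 bases before the annotated gene start, on the plus strand, from RefSeq's annotation of GRCh38.p14. RYR2 is chr1:237041934-237042183, TRPM4 is chr19:49157542-49157791 and CACNA1I is chr22:39570503-39570752. Capitals mark GGAA and TTCC, the same motif on the other strand.
RYR2 promoter window: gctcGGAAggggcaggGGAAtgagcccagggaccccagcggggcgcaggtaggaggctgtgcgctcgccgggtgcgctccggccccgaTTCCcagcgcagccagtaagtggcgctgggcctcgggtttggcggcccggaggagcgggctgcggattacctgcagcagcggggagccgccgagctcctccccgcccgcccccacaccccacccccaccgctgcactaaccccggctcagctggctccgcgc
TRPM4 promoter window: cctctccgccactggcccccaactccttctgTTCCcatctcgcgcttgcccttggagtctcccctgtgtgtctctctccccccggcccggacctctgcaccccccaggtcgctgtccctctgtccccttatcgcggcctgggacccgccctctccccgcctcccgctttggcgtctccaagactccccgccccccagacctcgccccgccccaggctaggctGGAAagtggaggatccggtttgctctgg
CACNA1I promoter window: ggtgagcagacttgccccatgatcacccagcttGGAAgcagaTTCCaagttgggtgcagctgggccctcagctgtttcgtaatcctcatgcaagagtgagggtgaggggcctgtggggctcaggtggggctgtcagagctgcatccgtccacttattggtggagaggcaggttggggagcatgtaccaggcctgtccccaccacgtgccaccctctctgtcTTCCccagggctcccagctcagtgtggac
The RYR2 window held 3 matches, the TRPM4 window 2 and the CACNA1I window 3. None of these 3 held the tandem, which is GGAA directly followed by GGAA, on either strand. Over all 35114 promoter windows of this length, 92.7% held a match, the median was 3 matches and 3.06% held that tandem. Of the genes called lower, the ATP2B4 window held 7 matches, the 2 MCU windows 5 and 4, the 2 NFATC2 windows 7 and 1, and the 3 SLC8A1 windows 4, 0 and 0, with the tandem in 1 window of MCU and 1 of NFATC2. A match is a string of letters in the reference, and no binding was measured here. For CACNA1I, the transcript that most often had the largest share of the gene's TPM starts at the annotated gene start. For RYR2 and TRPM4 the start of that transcript was not placed, so their windows may not lie at the start in use. RefSeq promoter windows were matched for 45 of the 55 genes, and of the 9 called genes CACNA1G and CALM2 had none matched.

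The other release channels were not called. RYR1, the ryanodine receptor of skeletal muscle, reached 1.83 TPM in U2OS and was at most 0.922 TPM in any other line. RYR2 led the ryanodine receptors in 6 of the 7 Ewing sarcoma lines and in none of the osteosarcoma lines. ITPR3, a receptor for the messenger IP3, led its family in 12 lines and ranged from 7.09 TPM in A673 to 81.0 TPM in HOS-MNNG. Its log2 fold change was -1.43 (SE 0.48, edgeR FDR 0.0624). ITPR2, another IP3 receptor, led in A673 alone with 49.2% of the family's TPM, and ranged from 0.332 TPM in MHHES1 to 8.18 TPM in A673. ITPR1, the main IP3 receptor of neurons, ranged from 0.251 TPM in MG63 to 7.88 TPM in SAOS2.

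Of the voltage-gated genes, those called were CACNA1G and CACNA1I, both of the T-type, whose channels open at small depolarisations. CACNA1G (gene ID 8913, GRCh38.p14 chr17:50560715-50627474) encodes the T-type channel Cav3.1. Its level was 1.40 TPM in A673, 22.9 in EW3, 9.79 in EW24, 13.98 in MHHES1, 3.77 in RDES, 14.8 in SKES1 and 1.57 in TC71. It was 0.438 TPM in G292, 0.036 in HOS-MNNG, 0.0418 in KHOS, 0.26 in MG63, 2.04 in SAOS2 and 1.37 in U2OS. A673 and TC71 lay below SAOS2, so the groups overlapped. The SD over libraries was at most 8.41 TPM, in EW3. In edgeR the log2 fold change was 3.76 (SE 0.97, edgeR FDR 0.021).

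CACNA1I (gene ID 8911, GRCh38.p14 chr22:39570753-39689735) encodes the T-type channel Cav3.3, which is best known from the thalamus. Its level was 0.346 TPM in A673, 2.57 in EW3, 7.07 in EW24, 7.70 in MHHES1, 1.54 in RDES, 6.77 in SKES1 and 1.26 in TC71. It was 0.612 TPM in G292, 0.0135 in HOS-MNNG, 0.00677 in KHOS, 0.00862 in MG63, 0.215 in SAOS2 and 0.215 in U2OS. A673 was the only Ewing sarcoma line below an osteosarcoma line, G292. The SD over libraries was at most 1.20 TPM, in MHHES1. This gave a log2 fold change of 4.33 (SE 1.15, edgeR FDR 0.0238).

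CACNA1H, the remaining T-type gene (Cav3.2), was the most abundant of the 3 in 6 of the 7 Ewing sarcoma lines and was not called. It ranged from 5.94 TPM in TC71 to 62.3 TPM in RDES among the Ewing sarcoma lines. Among the osteosarcoma lines it was 17.7 TPM in SAOS2, 8.37 in U2OS and 7.22 in HOS-MNNG, but only 0.323 in MG63, 0.0123 in KHOS and 0.0105 in G292. The osteosarcoma lines thus fell on both sides of 1 TPM, and the log2 fold change was 2.11 (SE 1.23, edgeR FDR 0.277). Summed, the T-type genes held 89.2% (A673) to 99.6% (MHHES1) of the TPM of the 10 voltage-gated genes in the Ewing sarcoma lines. In the osteosarcoma lines their share ran from 4.94% in KHOS and 7.27% in G292 to 81.2% in HOS-MNNG. This share was not tested.

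Of the high-voltage channels, none that passed the filter was called. CACNA1C, the L-type channel of heart and smooth muscle, had medians of 0.044 TPM in Ewing sarcoma and 1.79 TPM in osteosarcoma lines and reached 7.60 TPM in SAOS2. CACNA1A, the P/Q-type channel of nerve endings, reached 6.78 TPM in G292. CACNA1B, the N-type channel, reached 3.79 TPM in EW3, and CACNA1E, the R-type channel, passed 1 TPM only in G292 with 1.03 TPM.

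**Figure D3:**
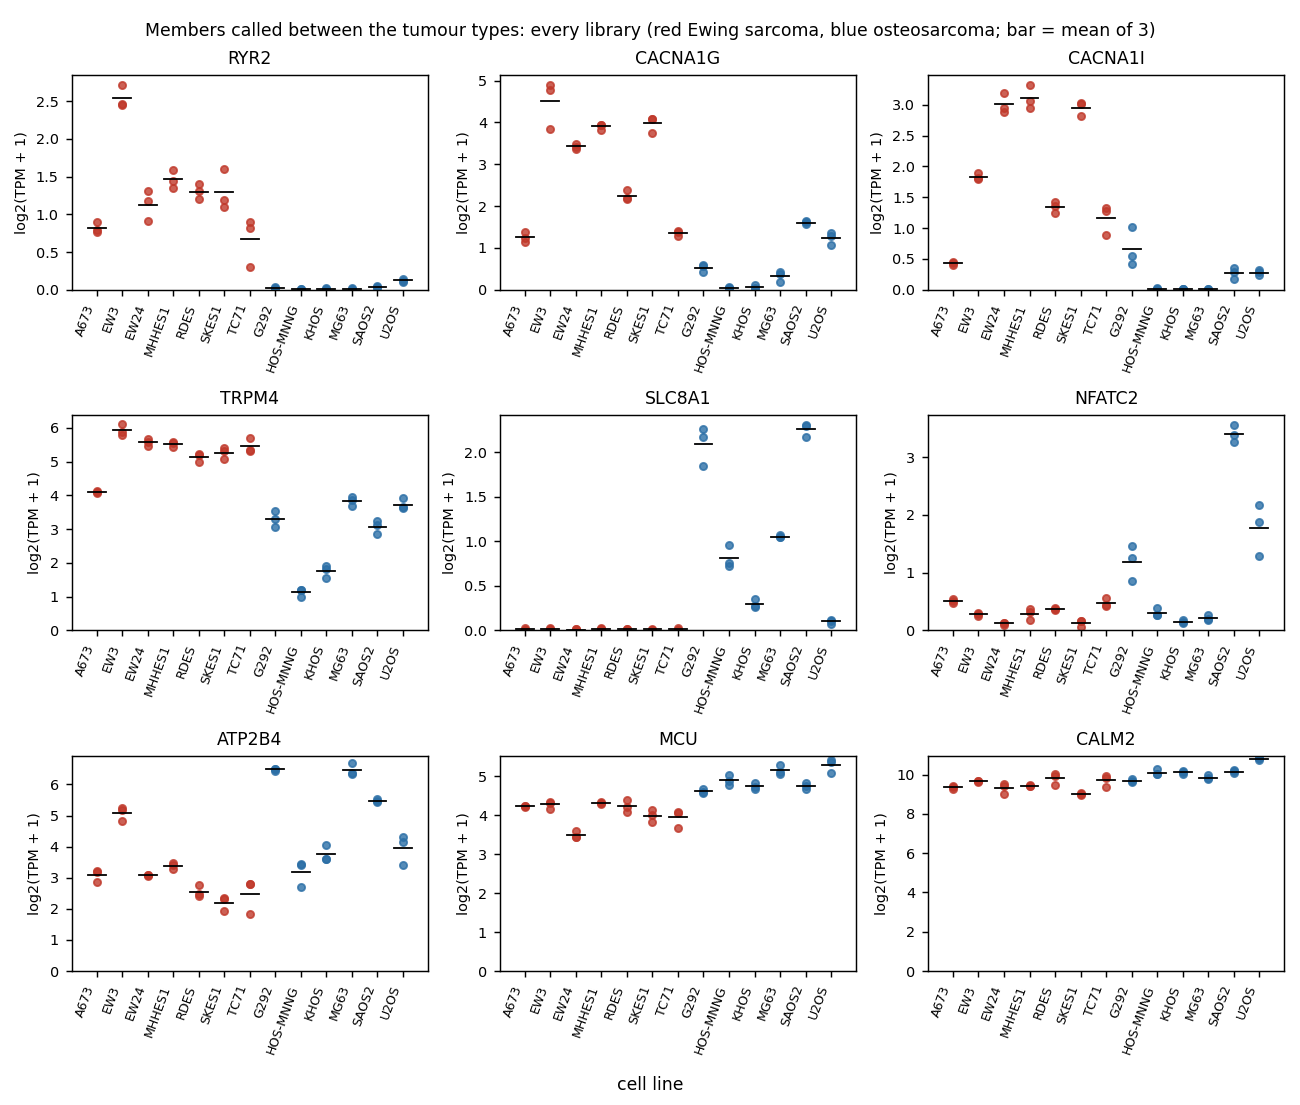
Every library of the 13 lines for the 9 genes called between the tumour types, as log2(TPM + 1), with red points for Ewing sarcoma, blue for osteosarcoma and a bar for the mean of 3. RYR2, TRPM4, MCU and SLC8A1 have line means that do not overlap, whereas SAOS2 and U2OS carry most of the NFATC2 signal.

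Of the TRP channels, TRPM4 was higher in the Ewing sarcoma lines as a gene sum. TRPM4 (gene ID 54795, GRCh38.p14 chr19:49157792-49211836) encodes a channel that calcium opens but that passes sodium and potassium, which depolarises the cell. Its level was 16.1 TPM in A673, 60.2 in EW3, 46.8 in EW24, 44.95 in MHHES1, 34.3 in RDES, 37.7 in SKES1 and 43.1 in TC71. It was 8.91 TPM in G292, 1.18 in HOS-MNNG, 2.43 in KHOS, 13.3 in MG63, 7.44 in SAOS2 and 12.3 in U2OS. The groups did not overlap, and the SD over libraries was at most 7.42 TPM, in EW3. The log2 fold change was 1.85 (SE 0.46, edgeR FDR 0.0176). A673, the line used for the hairpin, was the lowest of the Ewing sarcoma lines.

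The tumours differed in the shares of single TRPM4 transcripts, as follows. XM_047438993.1, a predicted transcript of 2816 nucleotides, held 51.5% ± 4.27 of TRPM4 TPM in A673 (SD, n = 3 libraries) and 84.6% ± 1.70 in EW3, with the other 5 Ewing sarcoma lines between. In the osteosarcoma lines its share was at most 13.5% ± 1.90 (SD, n = 3), in U2OS, and it was listed at 0 in HOS-MNNG and KHOS. NM_017636.4, of 4058 nucleotides, was listed at 0 in all 7 Ewing sarcoma lines and held 26.99% (G292) to 53.8% (MG63) in the osteosarcoma lines. The longer XM_047438992.1 held 1.90% to 7.16% in the Ewing sarcoma and 23.6% to 43.2% in the osteosarcoma lines. The share of NM_001195227.2 overlapped between the tumours. When XM_047438993.1 was left out of the sum, the other TRPM4 transcripts had 7.79 to 20.5 TPM in Ewing sarcoma and 1.18 to 12.4 TPM in osteosarcoma lines, which overlapped. Its log2 fold change was then 0.43 (SE 0.43, edgeR FDR 0.547) and was not called. This transcript was chosen after seeing that it was high in Ewing sarcoma, while transcripts high in osteosarcoma stayed in the sum, so a smaller fold change was set by the choice and tests nothing. Reads shared by several transcripts were divided among them by the authors' program, and the start of XM_047438993.1 was not placed on the genome here.

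**Figure D4:**
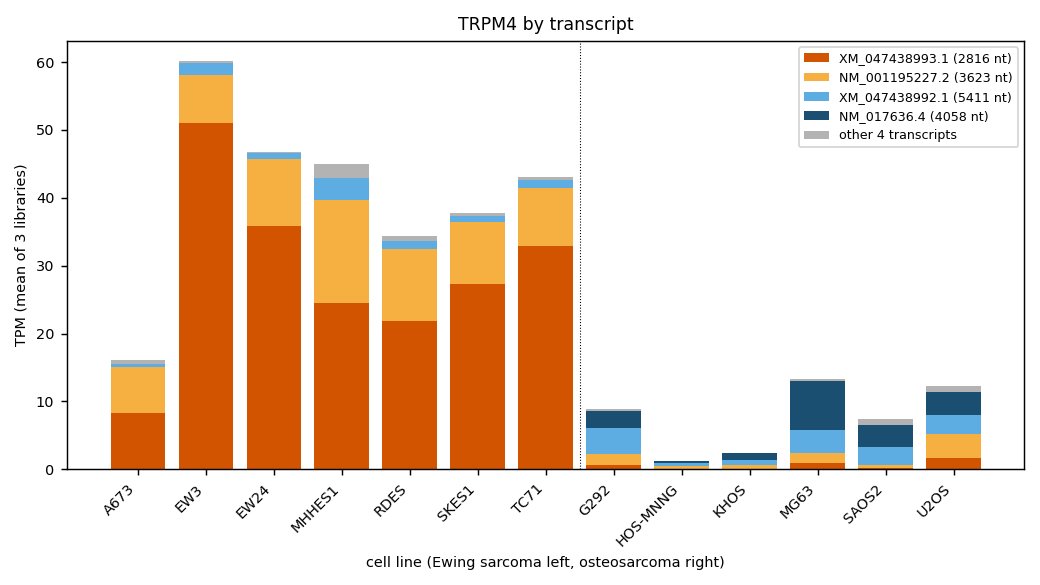
TRPM4 level by transcript in each line, as the mean TPM of 3 libraries stacked by transcript, with the 7 Ewing sarcoma lines to the left of the dotted line and the 6 osteosarcoma lines to the right. XM_047438993.1 makes up 51.5% to 84.6% of the bars on the left, and NM_017636.4 appears only on the right.

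A screen for transcripts whose share of the gene's TPM did not overlap between the tumours and differed by at least 25 percentage points found 49 of 8138 genes, or 0.602%. TRPM4 was the only one of the 23 calcium genes deep enough for the screen, and the same was found with shares of estimated counts. The rule of this screen was also chosen after seeing the data. Next came ATP2B1, for which NM_001682.3 had a mean share of 71.9% in the Ewing sarcoma and 54.5% in the osteosarcoma lines, with overlapping ranges.

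The other TRP channels were not called, and TRPC6 and TRPV6 were not tested. TRPM7, a channel for calcium and magnesium that is joined to a kinase, ranged from 4.68 TPM in U2OS to 20.4 TPM in RDES. TRPC1, a channel subunit gated downstream of receptors, ranged from 0.0865 TPM in MHHES1 to 7.25 TPM in SAOS2. TRPC4 ranged from being listed at 0 in EW24 to 4.35 TPM in EW3, and TRPC6 reached 3.04 TPM in EW3, with an osteosarcoma maximum of 0.217 TPM.

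The mitochondrial uniporter MCU was lower in every Ewing sarcoma line than in any osteosarcoma line. MCU (gene ID 90550, GRCh38.p14 chr10:72692143-72887694) encodes the pore through which calcium enters the mitochondrial matrix. Its level was 17.7 TPM in A673, 18.4 in EW3, 10.2 in EW24, 18.9 in MHHES1, 17.8 in RDES, 14.9 in SKES1 and 14.5 in TC71. It was 23.4 TPM in G292, 28.8 in HOS-MNNG, 25.8 in KHOS, 34.5 in MG63, 25.7 in SAOS2 and 38.3 in U2OS. EW24 was the lowest line and U2OS the highest, and the groups did not overlap. The SD over libraries was at most 4.63 TPM, in U2OS. In edgeR the log2 fold change was -1.002 (SE 0.19, edgeR FDR 0.00438), and it was -1.07 to -0.91 and called with each line or replicate number left out. MICU2, which gates the uniporter, was not called and ranged from 28.8 TPM in MHHES1 to 85.7 TPM in RDES.

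The sodium/calcium exchanger SLC8A1 was near 0 in the Ewing sarcoma lines. SLC8A1 (gene ID 6546, GRCh38.p14 chr2:40097270-40512435), also known as NCX1, exports calcium from excitable and many other cells. Its level was 0.0076 TPM in A673, 0.0115 in EW3, 0.00711 in EW24, 0.0129 in MHHES1, 0.0106 in RDES, 0.00735 in SKES1 and 0.00956 in TC71, which were 7 to 12 estimated counts per line. It was 3.32 TPM in G292, 0.762 in HOS-MNNG, 0.228 in KHOS, 1.08 in MG63, 3.79 in SAOS2 and 0.0734 in U2OS. The groups did not overlap, although U2OS was much closer to the Ewing sarcoma lines than SAOS2 was. The SD over libraries was at most 0.631 TPM, in G292. This gave a log2 fold change of -7.40 (SE 0.86, edgeR FDR 0.000232), and it was -7.66 to -6.98 and called with each line or replicate number left out.

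The remaining exchangers were not called. SLC8B1, the exchanger that moves calcium out of mitochondria, ranged from 2.27 TPM in TC71 to 13.9 TPM in U2OS. SLC8A2, an exchanger best known from the brain, reached 2.18 TPM in U2OS and 1.66 TPM in EW3 and was at most 0.335 TPM in the other lines.

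Calmodulin was lower in the Ewing sarcoma lines through CALM2. CALM2 (gene ID 805, GRCh38.p14 chr2:47160082-47176936) is 1 of the genes that encode the same calmodulin protein, and its transcript exceeded that of CALM3 in all 13 lines. Its level was 664 TPM in A673, 805 in EW3, 655 in EW24, 689 in MHHES1, 912 in RDES, 513 in SKES1 and 850.4 in TC71. It was 832 TPM in G292, 1101 in HOS-MNNG, 1113 in KHOS, 927 in MG63, 1143 in SAOS2 and 1802 in U2OS. RDES and TC71 lay above G292, so the groups overlapped, and the SD over libraries was at most 175 TPM. The log2 fold change was -0.77 (SE 0.19, edgeR FDR 0.0184). CALM3 ranged from 171 TPM in KHOS to 417 TPM in U2OS and was not called.

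None of the 3 CaM kinase II subunits tested was called by edgeR, and CAMK2A was not tested. CAMK2G, a broadly expressed subunit, led in 12 lines and ranged from 15.6 TPM in TC71 to 65.5 TPM in U2OS. CAMK2D, the subunit of heart muscle, led in G292 with 63.8% of the family's TPM. It ranged from 0.724 TPM in EW24 to 26.6 TPM in A673 among the Ewing sarcoma lines and from 9.85 to 65.0 TPM among the osteosarcoma lines, with a log2 fold change of -1.87 (SE 0.74, edgeR FDR 0.107). CAMK2B, a neuronal subunit, reached 2.24 TPM in EW24.

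At the end of the pathway, NFATC2 was lower in the Ewing sarcoma lines and no calcineurin gene was called. NFATC2 (gene ID 4773, GRCh38.p14 chr20:51386963-51562839) encodes a calcineurin-activated factor best known from T cells. Its level was 0.424 TPM in A673, 0.213 in EW3, 0.0882 in EW24, 0.224 in MHHES1, 0.289 in RDES, 0.0937 in SKES1 and 0.386 in TC71. It was 1.32 TPM in G292, 0.237 in HOS-MNNG, 0.111 in KHOS, 0.161 in MG63, 9.57 in SAOS2 and 2.54 in U2OS. The SD over libraries was at most 1.10 TPM, in SAOS2. Only G292, SAOS2 and U2OS lay above the Ewing sarcoma range, and the other 3 osteosarcoma lines lay within it. Its log2 fold change was -3.11 (SE 0.92, edgeR FDR 0.0391). Without SAOS2 it was -1.67, and the call was also lost without EW3, EW24, MHHES1, RDES, SKES1, TC71 or U2OS, at -3.31 to -2.97, with edgeR FDR values of at most 0.133. The exact permutation test over lines did not call it (adjusted p 0.225).

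The other NFAT and calcineurin genes were not called. NFATC3 led the NFAT genes in 10 lines and ranged from 8.65 TPM in MG63 to 37.5 TPM in RDES, with a log2 fold change of 0.58 (SE 0.29, edgeR FDR 0.202). NFATC4 led in 3 lines and ranged from 2.91 TPM in KHOS to 29.8 TPM in G292. NFATC1, an early-response factor in lymphocytes and osteoclasts, ranged from 0.444 TPM in SAOS2 to 16.6 TPM in SKES1. Among the catalytic subunits of calcineurin, PPP3CB led in 11 lines and ranged from 28.9 TPM in KHOS to 65.1 TPM in EW3. PPP3CA ranged from 16.8 TPM in RDES to 49.1 TPM in U2OS, and PPP3CC from 6.54 TPM in EW24 to 21.98 TPM in MG63.

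The tool mattered for how many genes were called, and the direction of the 9 genes was the same with each tool. DESeq2 called 17 of the 48 genes, 6 higher and 11 lower, where it called 24.6% of all genes. The 8 it added were ATP2B3 and CACNA1B as higher and ORAI3, ITPR3, CACNA1A, CACNA1C, CAMK2D and CAMK2G as lower in Ewing sarcoma, at DESeq2 FDR values from 0.000373 (ATP2B3) to 0.0484 (CACNA1C). The exact permutation test on log2(TPM + 1) called 7, where it called 11.1% of all genes, and the 2 it did not call were ATP2B4 and NFATC2. At an FDR under 0.01 edgeR called RYR2, MCU and SLC8A1, 3 of the 48, where 5.27% of all genes were called.

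A list of 86 other calcium genes gave the surroundings of the set. Of its 76 genes tested, edgeR called 6 as higher and 11 as lower in Ewing sarcoma, 17 in all, where 14.4% of all genes were called, 5.99% higher and 8.46% lower. CAMK1G, a kinase activated by calmodulin, had a log2 fold change of 9.19 (SE 2.33, edgeR FDR 0.0191), but its Ewing sarcoma levels ran from 0.0187 to 199 TPM and overlapped the osteosarcoma maximum of 0.231 TPM. SLC24A3, a potassium-dependent sodium/calcium exchanger, was at 10.1 to 37.9 TPM in the Ewing sarcoma lines and at most 0.364 TPM in the osteosarcoma lines, a log2 fold change of 7.70 (SE 1.24, edgeR FDR 0.00176). RCAN2, a regulator of calcineurin, was at most 0.785 TPM in the Ewing sarcoma lines and 1.19 to 38.7 TPM in the osteosarcoma lines, a log2 fold change of -6.01 (SE 1.63, edgeR FDR 0.0262). PIEZO2, a mechanically gated channel, had a log2 fold change of -4.82 (SE 1.45, edgeR FDR 0.041).

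The next comparison asked which calcium genes changed when doxycycline induced the hairpin against KCNN1. None of the 41 genes tested was called by edgeR, where 0% of the 14252 genes tested were called, and none had an unadjusted p under 0.05, as 94 of all genes did. KCNN1, the target of the hairpin, was therefore not called either, although its TPM was lower with doxycycline within each replicate number. A count of 0 in this fit thus does not show that no calcium gene changed. DESeq2 also called none of the 41, and 2 of all genes. Replicate numbers paired the libraries, and with the replicate as a block none of the 41 was called, where 0.512% of all genes were called. In that fit 6 of the 41 had an unadjusted p under 0.05, as 1878 of all genes did. Of the other calcium genes, edgeR called none of 61 with doxycycline. In TPM the libraries with and without doxycycline overlapped for all 41 genes, where 3.65% of all genes did not overlap. Replicate 3 stood apart in both groups, so values were also compared within replicate numbers. In TPM 4 of the 41 genes were higher with doxycycline and 12 lower in all 3 pairs, 39% together, where 34.9% of all genes had 1 sign in all 3 pairs, 13.7% higher and 21.3% lower. The 4 were ORAI1, ATP2C1, CAMK2D and NFATC3, and the 12 were STIM2, ORAI3, ATP2A3, ATP2B4, ITPR3, CACNA1C, CACNA1G, CALM2, CALM3, PPP3CB, NFATC1 and NFATC4.

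Of the 9 genes called between the tumour types, 8 were tested on induction and none was called. SLC8A1 was too low to be tested. RYR2 measured 0.257, 0.0965 and 0.477 TPM without doxycycline, against 0.417, 0.359 and 0.449 TPM in its presence. CACNA1G measured 1.60, 1.42 and 5.03 TPM without the drug, against 1.12, 1.13 and 3.43 TPM under induction. In both groups CACNA1G was highest in replicate 3, the replicate that stood apart. TRPM4 measured 10.6, 12.3 and 26.6 TPM before induction, against 10.2, 12.6 and 29.2 TPM after it. MCU measured 13.6, 14.8 and 14.4 TPM before induction, against 14.7, 13.9 and 16.1 TPM after it. MCU spread little between libraries and CALM2 spread more. CALM2 measured 426, 443 and 659 TPM before induction, against 357, 417 and 598 TPM after it. CACNA1I, ATP2B4 and NFATC2 had log2 fold changes of -0.16 (SE 0.36), -0.33 (SE 0.23) and 0.07 (SE 0.67). NFATC4, which was not called between the tumour types, measured 8.73, 7.92 and 28.8 TPM before induction, against 4.57, 7.05 and 17.1 TPM after it. NFATC4 was lower with the drug within each replicate number and had the lowest p of the set with the replicate block, a log2 fold change of -0.59 (SE 0.12, edgeR FDR 0.0787), which did not pass the threshold.

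The last comparison asked whether the calcium genes already differed between uninduced sh908 cells and parental A673. edgeR called 7 of 41 genes, where it called 15.1% of all 15778 genes tested. ATP2B3, ATP2A3, ATP2B4, CALM3 and PPP3CB were higher in the uninduced sh908 cells, and ATP2B1 and MICU2 were lower. Among all genes 8.71% were called higher and 6.42% lower. The TPM scale differed from edgeR's, since the median change of all genes was -0.28 in log2(TPM + 1) and 0.01 in edgeR, so a gene can be level in TPM and higher in edgeR. In TPM, 15 of the 41 genes did not overlap, 3 higher and 12 lower, where 46.6% of all genes did not overlap, 7.75% higher and 38.8% lower.

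All 7 calls were lost with the replicate block, where 2.02% of all genes were called. These 2 groups share only the replicate number, so that loss does not test a pairing. Each call was also lost in 4 or 5 of the 6 fits that left out a library. Of the plasma membrane pumps, 3 were called, 1 lower and 2 higher. ATP2B1 measured 26.5, 22.9 and 23.6 TPM in parental A673 and 9.03, 8.29 and 11.7 TPM in the uninduced sh908 cells. Its log2 fold change was -0.89 (SE 0.13, edgeR FDR 0.0118). ATP2B3 measured 0.0784, 0.0319 and 0.0646 TPM in parental cells and 0.316, 0.377 and 0.46 TPM in uninduced sh908 cells, with a log2 fold change of 2.97 (SE 0.45, edgeR FDR 0.0132). Neither pump overlapped between the groups. ATP2B4 measured 8.21, 6.25 and 8.05 TPM and then 7.98, 7.94 and 13.03 TPM, which overlapped, with a log2 fold change of 0.79 (SE 0.14, edgeR FDR 0.0179). The store pump ATP2A3 measured 0.349, 0.343 and 0.272 TPM and then 0.644, 0.592 and 1.98 TPM, with a log2 fold change of 2.02 (SE 0.44, edgeR FDR 0.0292). Its uninduced libraries all lay above the parental ones, the highest being replicate 3. Of the mitochondrial genes, MICU2 measured 73.6, 73.6 and 64.1 TPM and then 25.8, 27.5 and 44.2 TPM, with a log2 fold change of -0.67 (SE 0.13, edgeR FDR 0.0237). The uninduced libraries of MICU2 all lay below the parental ones. CALM3 measured 258, 253 and 263 TPM and then 266, 256 and 319 TPM, with a log2 fold change of 0.59 (edgeR FDR 0.0474). PPP3CB measured 47.3, 46.6 and 44.4 TPM and then 39.1, 39.7 and 58.6 TPM, with a log2 fold change of 0.47 (edgeR FDR 0.0407). CALM3 lost its call with relative log expression scaling (edgeR FDR 0.0544) and with no filter (edgeR FDR 0.12), and PPP3CB with no filter (edgeR FDR 0.129). Both overlapped. For PPP3CB, replicates 1 and 2 of the uninduced cells lay below every parental library in TPM. Only replicate 3, the library that stood apart from those 2, lay above.

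The number of calls changed with the libraries kept, among all genes as among these 41. Each of the 7 genes called kept its direction in the 6 fits that left out a library. Without replicate 1, 2 or 3 of parental A673, none of the 41 genes was called, and of all genes 4, 2 and 8 were. Without replicate 1 of the uninduced sh908 cells 4 were called, where 8.25% of all genes were. Without replicate 2 none was called, where 1.6% of all genes were. Without replicate 3, which stood apart from replicates 1 and 2, 30 were called, 16 higher and 14 lower, and the 7 above were among them. Of all genes 62.3% were then called, 29.1% higher and 33.2% lower. DESeq2 called 17, where it called 26.4% of all genes, and none of the 41 passed an FDR under 0.01 in edgeR, where 1.23% of all genes did. Of 60 other calcium genes, edgeR called 7, 2 higher and 5 lower, where 15.1% of all genes were called, 8.71% higher and 6.42% lower. The labels did not say when either group was cultured or sequenced, so the hairpin construct and such differences cannot be told apart.

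**Figure D5:**
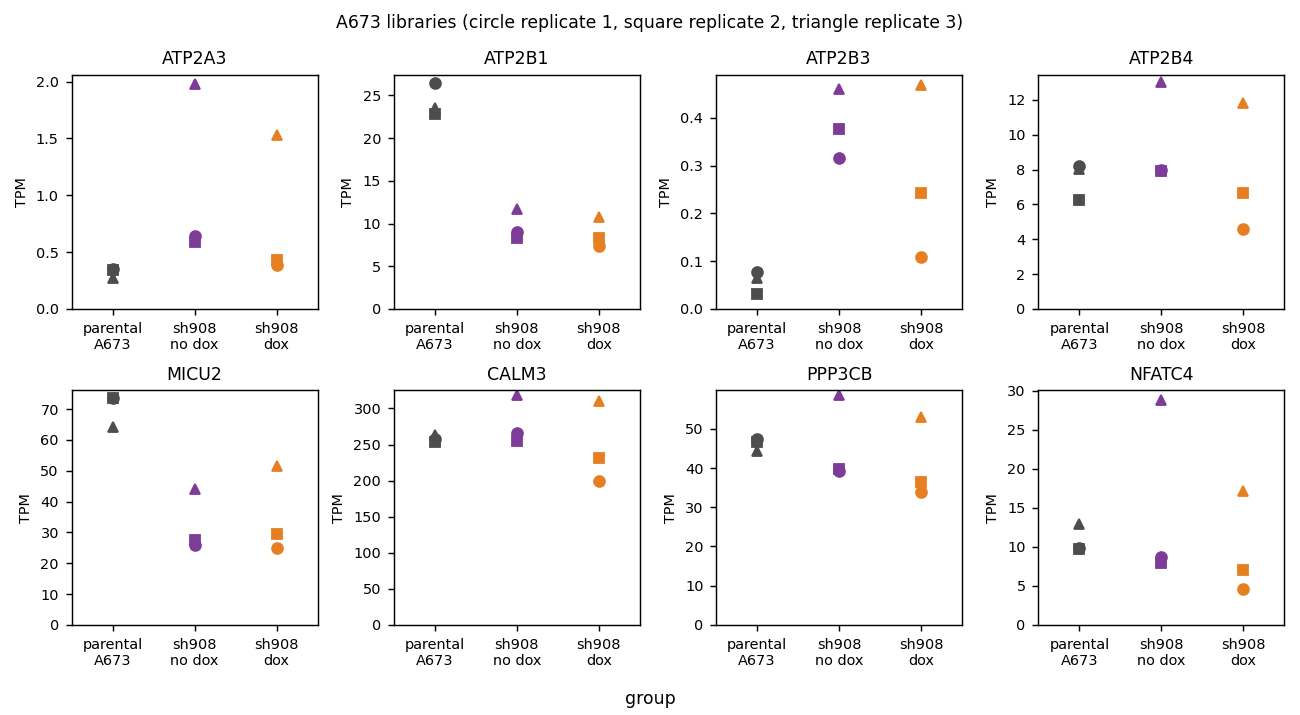
TPM of 8 calcium genes in every library of parental A673, sh908 cells without doxycycline and sh908 cells with doxycycline, 3 libraries each, with 1 marker shape per replicate number. Replicate 3 of both sh908 groups (triangles) lies above the other 2 for all 8 genes, and ATP2B1 and MICU2 are lower in both sh908 groups than in parental A673.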

How the data were processed

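Per the labels, the kits were NucleoSpin RNA Plus for extraction and TruSeq Stranded mRNA for libraries. The authors deposited 1 table per library with 177816 transcripts. Per the file headers, each table gave the effective length, the estimated count (an expected count, not scaled for depth) and TPM (which the authors scaled by effective length and library depth). Per the submitters' processing notes, the tools included fastp 0.19.5 and kallisto 0.46.2, and the builds hg38 and GRCh38.p14. Options were not given in the sources used here.

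Transcripts were joined to genes through RefSeq accessions (169966 matched, 95.6%), and estimated counts and TPM were summed per gene. Summed counts were rounded. Genes were filtered with filterByExpr, scaled by TMM and tested with edgeR 4.0.16 under R 4.3.3 over all genes, with DESeq2 1.42.0, relative log expression scaling, no filter, left-out samples and exact permutation of the 13 lines on log2(TPM + 1) as alternatives. Scripts were tested on simulated data. Leading transcripts were described only where every library of a line had at least 30 estimated counts of the gene, and the transcript screen only over genes with that many in every library.

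Same-numbered sh908 libraries deviated together from their group means (r = 0.683, 0.582 and 0.881 across genes, all over 0.1), so the replicate numbers were taken as pairs there. Replicates 1 and 2 were not set apart from each other by this, since across numbers they gave r = 0.608 and 0.517, and replicate 3 gave negative values with both. Called genes are given in every line, genes reaching 1 TPM by their range, and the other calcium genes by the largest 4 changes among those called whose mean log2 CPM reached 1. The genes, lists and comparisons were chosen with earlier results of these data known. Levels cover counting and library spread only, since reads carry no molecular identifiers.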

Additional observations from a re-analysis of the deposited data

Results flagged for a closer look

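Within each tumour type, a line was picked out where its gap to the nearest other line, on log2(TPM + 1), was a larger share of the range than Dixon's test allows at 95%. This picked out 19 values in 94 tests, or 20.2%. The same rule picked out 15.5% of 44116 tests over all genes that reached 1 TPM in a line, while chance picks out about 1 test in 20. No cause was tested.

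EW3 was high among the Ewing sarcoma lines for ATP2B4 (32.9 TPM, others at most 9.49), ITPR1 (6.13 TPM, others at most 2.47), RYR2 (4.85 TPM, others at most 1.76), CACNA1A (2.02 TPM, others at most 0.562) and SLC8A2 (1.66 TPM, others at most 0.335), and low for ORAI1 (14.4 TPM, others at least 32.5). A673 was low for TRPM4 (16.1 TPM, others at least 34.3) and high for PPP3CA (39.4 TPM, others at most 21.2). TC71 was low for ATP2A2 (68.5 TPM, others at least 144), MHHES1 low for MICU2 (28.8 TPM, others at least 58.8) and SKES1 high for NFATC4 (24.5 TPM, others at most 14.8).

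U2OS was high among the osteosarcoma lines for ATP2B3 (0.793 TPM), RYR1 (1.83 TPM), RYR2 (0.0896 TPM), CACNA1B (0.337 TPM) and SLC8A2 (2.18 TPM). SAOS2 was high for STIM1 (66.4 TPM, others at most 19.996) and ATP2A1 (5.52 TPM, others at most 1.43). G292 was high for CACNA1E (1.03 TPM, others at most 0.134).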

How the results depend on the processing

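Between the tumour types the count of 9 genes moved to 17 with DESeq2, where 24.6% of all genes were called, and to 3 at an FDR under 0.01, where 5.27% were. It was 7 to 12 with single lines or replicate numbers left out, where 10.7% to 14.2% of all genes were called, and 11 of 55 with no filter, where 10.5% were. Of 76 other calcium genes, 29 were called with DESeq2 against 17 with edgeR, where 24.6% and 14.4% of all genes were. Of the 9, RYR2, CACNA1G, CACNA1I, MCU, SLC8A1 and CALM2 kept direction and call under every alternative at an FDR under 0.05. TRPM4 lost its call there only without XM_047438993.1 (0.43), the transcript chosen for being high in Ewing sarcoma, and ATP2B4 and NFATC2 lost theirs as given above.

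With doxycycline the count stayed at 0 under every alternative, the replicate block included, where at most 0.512% of all genes were called. Between uninduced and parental cells the 7 calls became 17 with DESeq2 (26.4% of all genes), 0 with the replicate block (2.02%), 0 at an FDR under 0.01 (1.23%) and 0 to 30 with single libraries left out (0.0125% to 62.3%), and of 60 other calcium genes 18 were called with DESeq2 against 7 with edgeR (15.1% of all genes). Those replicate numbers share only a number (r = 0.0455, 0.0866 and 0.25). The tumour type comparison was not run as paired, because the libraries of each line were summed into 1 sample. None of the 9 genes called between the tumour types, or the 7 called between uninduced and parental cells, reversed direction. Genes not called were not followed singly. With doxycycline, 21 of the 41 genes tested had a positive log2 fold change in the main fit. That number was 15 without replicate 3 of the induced libraries and 25 without replicate 3 of the uninduced ones. The number of genes reaching a line mean of 0.5 or 2 TPM was 48 or 44, against 47 at 1 TPM. Levels under about 0.1 TPM rest on few counts per line.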

Other observations

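The tables are by transcript, so the leading transcript of each calcium gene, the one with the largest share of the gene's TPM, could be compared across lines. A share was given for 472 pairs of a gene and a line, over 49 genes, and 44 of these genes had more than 1 listed transcript and a share in more than 1 line. Of the 44, 23 had the same leading transcript in every line with a share. By estimated counts the same transcript led in 438 of the 472 pairs. CALM2 was the most uniform of the called genes, with NM_001743.6 at 98.1% (HOS-MNNG) to 99.2% (MHHES1). MCU was led by NM_138357.3, with 88.3% in MHHES1 to 98.04% in TC71, and ATP2B4 by NM_001684.5, with 82.5% in RDES to 97.5% in EW3.

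By the number of lines in which the leading transcript changed, ATP2A2 was where the unit mattered most. NM_001681.4, of 4325 nucleotides, led by TPM in 12 lines, with 53.8% in MG63 to 70.1% in A673, and NM_170665.4, of 8295 nucleotides, led in RDES with 50.1%. By estimated counts the longer transcript led in 12 lines and the shorter one in A673. CACNA1I was led by NM_001003406.2 in the 8 lines with enough counts, at 49.8% ± 48.9 in A673 and 87.0% ± 10.7 in RDES (SD, n = 3), so its shares were uncertain where the gene was low.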
